A study of Mus musculus with 20 samples.

Results

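The 10 genes described here encode glycosyltransferases of O-glycan and blood group synthesis in the mucosa of the cecum: Galnt12, C1galt1, B3gnt6, Gcnt3, B3galt5, B3gnt7, Fut2, B4galnt2, St3gal4, and St6galnac6. They were found by matching the identifiers of the count table to gene symbols, and all 10 were among its 19887 genes. The members were chosen by their role and by a readout of these same mice, the lower B3galt5 RNA with raw potato starch (RPS), so their differences from the mice without RPS, and B3galt5 in every contrast, are given as a description. Counts of members past a threshold in these contrasts stand only beside the share of all genes and support nothing. All 10 passed the filter on low counts, as did 15348 genes of the table.

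RNA was measured by RNASeq in the cecum of 20 C57BL/6 mice, with 5 mice on each of 4 diets. All mice, controls included, were placed on the Total Western Diet (TWD), which follows the nutrient intake of people in the United States, from 3 weeks of age and kept on it for 6 weeks. They were then given the TWD with 0, 2, 5, or 10% RPS, a resistant starch that reaches the large bowel undigested, for 3 more weeks. The mice carried no transgene or deletion named in the labels, the sexes are not given for these libraries, and the cecum was sampled as whole tissue with its muscle, stroma, and immune cells. Mice are named here by diet and by a number from 1 to 5 within the diet. The same number in different diets does not mark paired mice.

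Mucin-type O-glycans are built stepwise in the Golgi apparatus of goblet cells and enterocytes. GalNAc is first placed on serine or threonine, a core is made on it and branched, chains of galactose and GlcNAc are added, and the ends are capped by fucose, GalNAc, or sialic acid. In the large bowel these glycans make up most of the mass of the mucins, serve resident bacteria as food and as sites of attachment, and carry the blood group antigens.

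Total counts ranged from 14967798 to 42687283 per mouse, and values per mouse are given as CPM, the counts of a gene relative to the library total, with library totals scaled by TMM. Epithelial markers were present in every mouse, with the 10 markers (Epcam, Cdh1, and others) summing to between 10333 and 15242 CPM. The 6 smooth muscle markers summed to between 2441 and 9680 CPM. In whole tissue, fewer cells of a type and less RNA per cell cannot be told apart.

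Per kilobase of exon, which allows genes to be set beside each other, the mean level over the 20 mice was highest for B4galnt2 (161.5 CPM per kb), which adds the GalNAc of the Sda antigen, and for Gcnt3 (134 CPM per kb), which makes the branches of core 2 and core 4. The mice of these 2 genes overlapped, at 127 to 217 and 116 to 153 CPM per kb. St6galnac6, a sialyltransferase, followed at 54.6 CPM per kb, then Galnt12, an initiating GalNAc transferase, at 40.1 and Fut2, which makes the H antigen, at 28.3 CPM per kb, and the mice of St6galnac6 and Galnt12 overlapped, as did those of Galnt12 and Fut2, while every mouse had more Gcnt3 than any had St6galnac6. C1galt1, the core 1 synthase, at 11.1 CPM per kb and B3galt5 at 10.7 CPM per kb lay below every mouse's value of Galnt12, and B3galt5 ranged from 1.74 to 26.5 CPM per kb. St3gal4 (4.90 CPM per kb) and B3gnt6, the core 3 synthase (3.78 CPM per kb), overlapped each other. B3gnt7 was lowest, at 0.272 CPM per kb, and rested on 5 to 181 counts per mouse.

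**Figure D1:**
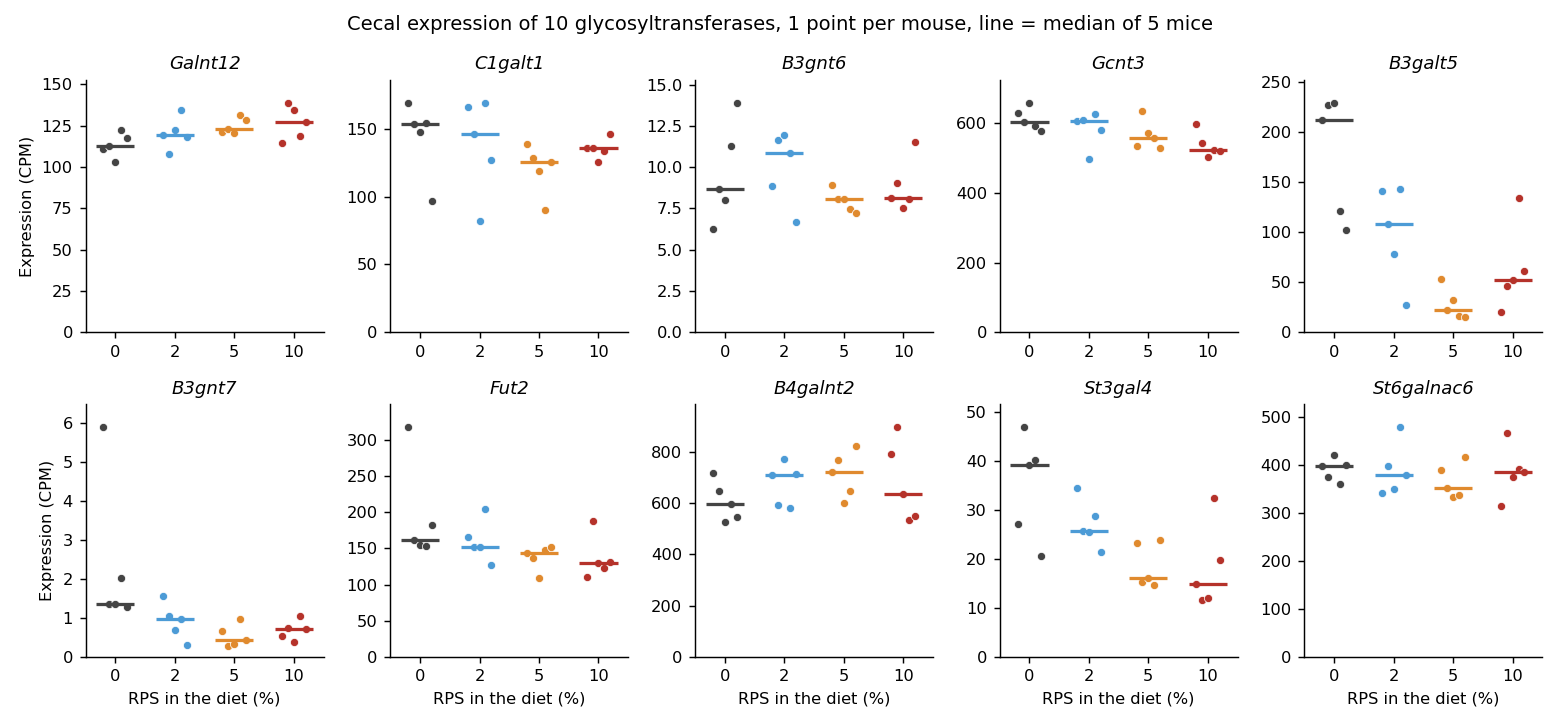
Expression in CPM (vertical axes, linear from 0, a scale of its own for each gene) of the 10 glycosyltransferases in the cecum against RPS in the diet (horizontal axes, %). Points are single mice and lines the medians of 5 mice. The medians of B3galt5 were 212, 108, 21.7, and 52.2 CPM at 0, 2, 5, and 10% RPS, whereas those of Galnt12 lay between 113 and 127 CPM.

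B3galt5 had the lower level with RPS that had led to its choice, and its mean was lowest at 5% RPS, where the mice overlapped those on 10% RPS. The enzyme adds galactose to the ends of GlcNAc chains and so makes type 1 chains, on which Lewis antigens are built. On 0% RPS the mice had 212, 227, 229, 121, and 102 CPM of B3galt5. On 2% RPS they had 141, 108, 78.2, 142, and 27.5 CPM. These diets overlapped, with mouse 5 on 2% RPS far under the others. On 5% RPS the mice had 53.4, 21.7, 32.04, 16.6, and 15.03 CPM, all below every mouse on 0% RPS. On 10% RPS they had 20.5, 46.1, 52.2, 134, and 61.4 CPM, and mouse 4 reached the range of the mice on 0% RPS while the other 4 lay below it.

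The means of B3galt5 were 178 ± 61.5 CPM (SD, n = 5) on 0% RPS, 99.3 ± 48.0 CPM on 2%, 27.8 ± 15.8 CPM on 5%, and 62.8 ± 42.5 CPM on 10% RPS. The fitted log2 fold changes against 0% RPS were -0.85 ± 0.48 (SE) at 2%, -2.68 ± 0.51 at 5%, and -1.51 ± 0.49 at 10% RPS, or 0.556, 0.156, and 0.352 times the level on 0% RPS. All 3 of these contrasts share the 5 mice on 0% RPS. Between the RPS diets themselves the log2 fold change of B3galt5 was -1.83 ± 0.50 for 5% against 2% RPS and 1.17 ± 0.49 for 10% against 5% RPS. Without mouse 4 on 10% RPS the log2 fold change at 10% was -1.98 and that for 10% against 5% RPS was 0.70.

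B3galt5 lies on chromosome 16 (chr16:96036699-96121060, plus strand, GRCm39), and GENCODE gives it 9 distinct transcript starts between 96036699 and 96082353. The counts are per gene and do not tell which start was used. The RefSeq promoter table (GRCm38.p6) holds 3 windows for it, each found once in GRCm39. Their starts lie 244, 32, and 120 bases from the nearest GENCODE start. They are shown because B3galt5 is the member with the steepest difference and because its starts differ in sequence. Each line gives the 250 bases before a start, 5′ to 3′ on the gene's strand, with capitals at matches to the motifs that were searched:

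B3galt5 window 1 (chr16:96036751-96037000, GRCm39, plus strand): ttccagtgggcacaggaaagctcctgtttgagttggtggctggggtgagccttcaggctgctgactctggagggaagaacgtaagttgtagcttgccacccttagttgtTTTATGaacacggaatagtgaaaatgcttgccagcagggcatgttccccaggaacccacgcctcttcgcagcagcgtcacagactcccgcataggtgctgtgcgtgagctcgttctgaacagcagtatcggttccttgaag
B3galt5 window 2 (chr16:96074463-96074712, GRCm39, plus strand): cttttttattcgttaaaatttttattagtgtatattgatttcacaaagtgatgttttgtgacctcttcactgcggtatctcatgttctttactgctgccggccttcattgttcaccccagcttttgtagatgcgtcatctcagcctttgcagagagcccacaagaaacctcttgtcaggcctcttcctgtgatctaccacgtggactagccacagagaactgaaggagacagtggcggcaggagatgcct
B3galt5 window 3 (chr16:96081982-96082231, GRCm39, plus strand): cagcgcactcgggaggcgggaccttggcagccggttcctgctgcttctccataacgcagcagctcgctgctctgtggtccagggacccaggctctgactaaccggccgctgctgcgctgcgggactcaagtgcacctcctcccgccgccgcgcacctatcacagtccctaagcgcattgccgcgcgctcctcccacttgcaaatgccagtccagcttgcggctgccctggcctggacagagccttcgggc

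Short motifs of 4 kinds were searched on both strands. They were TTTATG, bound by the intestinal CDX factors, GTTAAT, one arm of the HNF1 site, CAAAGTCCA for HNF4, and the GC box GGGCGG, and none of these overlaps another as written. Window 1 of B3galt5 held TTTATG 141 bases before the start given by that table, a motif found in 10.8% of the 32851 windows of the table. Windows 2 and 3 held no match to these letters. GTTAAT stood in 6.43% and CAAAGTCCA in 0.384% of all windows, and neither was in a window of any member. The GC content of the B3galt5 windows was 54.0, 45.2, and 67.2%.

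B3gnt7, which extends chains by adding GlcNAc to galactose and takes part in making sulfated chains, was lower in mice fed RPS at every dose, at very low counts. On 0% RPS the mice had 5.89, 1.35, 1.35, 2.01, and 1.29 CPM, so that mouse 1 was far above the other 4. On 2% RPS they had 1.56, 1.04, 0.689, 0.964, and 0.303 CPM. On 5% RPS they had 0.658, 0.288, 0.317, 0.975, and 0.424 CPM. All mice on 5% RPS were below all mice on 0% RPS, whereas 1 mouse on 2% RPS, mouse 1, was inside the range of the controls. On 10% RPS they had 0.523, 0.749, 0.379, 1.04, and 0.713 CPM, again all below the controls.

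The log2 fold changes of B3gnt7 against 0% RPS were -1.42 ± 0.46 (SE) at 2%, -2.12 ± 0.48 at 5%, and -1.82 ± 0.47 at 10% RPS. Mouse 1 on 0% RPS carried part of these sizes. Without it they were -0.75, -1.46, and -1.15. Between 5% and 2% RPS the log2 fold change was -0.70 ± 0.49 and between 10% and 5% RPS 0.30 ± 0.50, both smaller than 2 SE.

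St3gal4, which puts sialic acid on the terminal galactose of a chain, was also lower with RPS. On 0% RPS the mice had 27.1, 46.9, 39.3, 40.3, and 20.7 CPM of St3gal4, and on 2% RPS 34.5, 25.6, 25.6, 28.7, and 21.3 CPM, which lay inside the range of the controls. On 5% RPS they had 23.2, 15.3, 16.2, 14.6, and 23.9 CPM, and on 10% RPS 14.9, 11.6, 11.98, 32.4, and 19.9 CPM. Mouse 4 on 10% RPS, the mouse with the high B3galt5 level, had the highest St3gal4 level of its diet. The groups overlapped at each dose. Mouse 5 on 0% RPS was below 1 or more mice of every other diet. The log2 fold changes against 0% RPS were -0.36 ± 0.26 (SE) at 2%, -0.90 ± 0.27 at 5%, and -0.95 ± 0.27 at 10% RPS, where 0.519 times the control level remained. Without mouse 4 on 10% RPS the last of these was -1.25.

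The windows before the starts of B3gnt7 (chr1:86230554-86235027, plus strand) and St3gal4 (chr9:34957872-35034889, minus strand) are shown beside those of B3galt5 as the other 2 members with the largest differences from 0% RPS:

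B3gnt7 (chr1:86230693-86230942, GRCm39, plus strand): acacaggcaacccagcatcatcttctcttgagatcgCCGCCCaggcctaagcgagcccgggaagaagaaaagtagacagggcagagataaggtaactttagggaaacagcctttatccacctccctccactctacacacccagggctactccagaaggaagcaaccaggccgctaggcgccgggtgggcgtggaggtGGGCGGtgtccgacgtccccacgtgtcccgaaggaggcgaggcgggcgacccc
St3gal4 (chr9:35028161-35028410, GRCm39, minus strand): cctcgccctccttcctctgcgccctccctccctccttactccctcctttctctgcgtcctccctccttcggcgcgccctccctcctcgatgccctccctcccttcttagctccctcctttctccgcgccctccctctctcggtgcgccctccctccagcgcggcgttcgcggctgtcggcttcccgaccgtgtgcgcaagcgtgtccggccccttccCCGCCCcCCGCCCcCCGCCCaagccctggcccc

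Both held GC boxes, as did 32.7% of all windows. B3gnt7 had them 214 and 53 bases before the start, and St3gal4 had 3 in a row, 33, 26, and 19 bases before its start. Neither held the CDX, HNF1, or HNF4 letters. The table had windows for 6 of the 10 members. Those of C1galt1 and B4galnt2 held GC boxes, and that of St6galnac6 held none of the 4 motifs. B3gnt6, Fut2, Gcnt3, and Galnt12 had no window there.

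Fut2, the fucosyltransferase that makes the H antigen of secretions and of the gut surface, had a smaller difference. On 0% RPS the mice had 318, 162, 155, 153, and 182 CPM, and on 10% RPS 110, 188, 130, 122, and 131 CPM. On 5% RPS the values were 143, 137, 109, 148, and 153 CPM, all below the controls by a narrow margin, since the highest mouse on 5% RPS had 152.6 CPM and the lowest control had 153.4 CPM. The log2 fold changes against 0% RPS were -0.28 ± 0.19 (SE) at 2%, -0.49 ± 0.19 at 5%, and -0.51 ± 0.19 at 10% RPS. Mouse 1 on 0% RPS, which was also the highest in B3gnt7, moved them by more than any other mouse, and without it they were -0.03, -0.24, and -0.26.

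The remaining 6 members differed little between the diets. Galnt12, which starts O-glycans, was between 103 and 123 CPM on 0% RPS and between 115 and 139 CPM on 10% RPS, with a log2 fold change of 0.16 ± 0.07 (SE). B4galnt2 had log2 fold changes of 0.15 ± 0.14, 0.23 ± 0.14, and 0.17 ± 0.14 at 2, 5, and 10% RPS. Gcnt3 ranged from 577 to 659 CPM on 0% RPS and from 504 to 597 CPM on 10% RPS, which is a log2 fold change of -0.19 ± 0.08. The diets overlapped in each of these 3 genes.

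C1galt1 and B3gnt6 compete for the same GalNAc, the first making core 1 and the second core 3. C1galt1 had log2 fold changes of -0.06 ± 0.16 (SE) at 2%, -0.26 ± 0.16 at 5%, and -0.09 ± 0.16 at 10% RPS. It overlaps the gene model Gm43961 on the same strand, and its reads may be shared with that gene. B3gnt6 had log2 fold changes of 0.05 ± 0.19, -0.28 ± 0.19, and -0.12 ± 0.19, and no mouse lay outside the range of those on 0% RPS (6.25 to 13.9 CPM). St6galnac6, which adds sialic acid to an inner sugar, had -0.01 ± 0.10, -0.10 ± 0.10, and -0.02 ± 0.10. For these 3 genes the sign at 2% or 10% RPS changed in at least 1 other processing of the data, and that of C1galt1 at 5% RPS turned positive (0.13) with the smooth muscle level as a covariate.

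**Figure D2:**
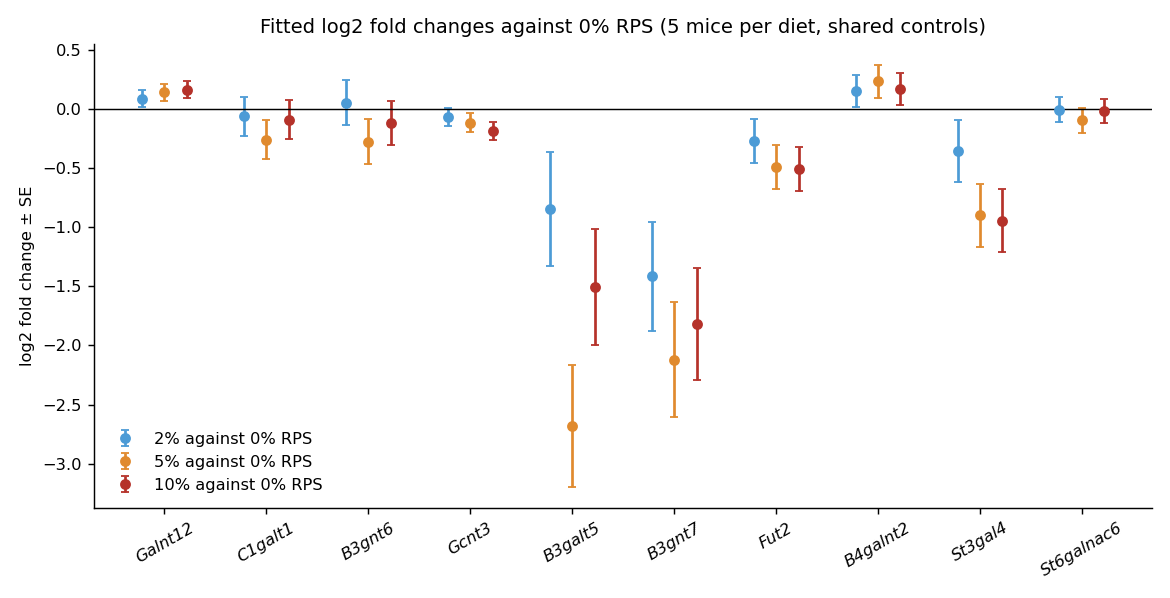
Fitted log2 fold changes (vertical axis) of the 10 members for 2, 5, and 10% RPS against 0% RPS, with bars of 1 SE. The 3 contrasts share 5 control mice. B3galt5 at 5% RPS (-2.68) and B3gnt7 at 5% RPS (-2.12) lie lowest, and the highest point is B4galnt2 at 5% RPS (0.23).

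The counts of members that passed a threshold are given beside the same share of all genes, and nothing is read from them where the contrast was used in the choice. The threshold in edgeR's quasi-likelihood test was an adjusted p (Benjamini-Hochberg, all genes) of 0.05 or less together with a 1.5-fold difference in either direction. At 10% against 0% RPS, 0 of 10 members and 1.04% of all genes passed. At an unadjusted p under 0.05 there were 6 members (Galnt12, Gcnt3, B3galt5, B3gnt7, Fut2, and St3gal4) beside 19.5% of all genes, and DESeq2's Wald test passed B3galt5, B3gnt7, and St3gal4 beside 2.46%. Without mouse 4 on 10% RPS, edgeR passed these same 3 members and 302 of all genes, in place of 160. All mice on 10% RPS were below all mice on 0% RPS in B3gnt7 alone, and in 3.2% of all genes.

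At 5% against 0% RPS, edgeR passed 1 member, B3galt5, beside 0.195% of all genes. At an unadjusted p under 0.05 there were 4 members (B3galt5, B3gnt7, Fut2, and St3gal4) beside 13.3% of genes, and DESeq2 passed B3galt5, B3gnt7, and St3gal4 beside 1.41%. All mice on 5% RPS were below all controls in B3galt5, B3gnt7, and Fut2, and in 2.04% of genes. As a description of that count, B3galt5 was past the threshold in 8 of 20 fits that left out 1 mouse, which is no test of a gene chosen for this difference. It was not past it without any 1 of the 5 mice on 0% RPS, of mice 1 and 2 on 2%, of mice 2 to 5 on 5%, or of mouse 5 on 10% RPS.

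At 2% against 0% RPS edgeR passed 0 members and 0% of genes. B3gnt7 was the 1 member at an unadjusted p under 0.05, as were 5.77% of genes, and DESeq2 passed 0 members and 0.027% of genes. No member, but 0.671% of genes, had all mice on 2% RPS below all controls. In the linear trend over the percentage of RPS, edgeR passed 0 members and 1.11% of genes at an adjusted p of at most 0.05. The trend had 6 members (Galnt12, Gcnt3, B3galt5, B3gnt7, Fut2, and St3gal4) and 18.8% of genes at an unadjusted p under 0.05, and B3gnt7 and St3gal4 with 4.84% of genes in DESeq2. The diets with RPS were also set against each other. edgeR and DESeq2 each passed 0 members and 0% of genes for 10% against 5% and for 5% against 2% RPS. At an unadjusted p under 0.05 there were 2.79% and 3.39% of genes and, in both, 1 member, B3galt5, from which nothing is read because it was chosen for its differences between these diets.

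The 5% against 2% RPS contrast did not enter the choice of the other 9 members, and none of them had an unadjusted p under 0.05 there in edgeR. This depended on the tool, since St3gal4 had an unadjusted p of 0.0334 in DESeq2's Wald test (log2 fold change -0.54). In edgeR the log2 fold changes of these 9 ran from -0.70 ± 0.49 (SE) for B3gnt7 and -0.54 ± 0.27 for St3gal4 to 0.08 ± 0.14 for B4galnt2. The contrasts with 0% RPS did enter the choice, and the values that follow are a description that includes B3galt5. At 10% against 0% RPS, 8 of 10 members and 7540 of all 15348 genes had a negative log2 fold change. The members' median was -0.15, beside a median of 0.004 for all genes, and at 5% the median was -0.27 beside -0.002. Nothing is read from these directions.

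Each member was then followed from mouse to mouse within a diet, which the choice of members did not use. For this the diet mean was taken from the log2 CPM of each mouse and values were permuted within diets, two-sided, 100000 times. Among the 45 pairs of members, 0 passed a Benjamini-Hochberg adjusted p of 0.05 and 6 had an unadjusted p under 0.05. Pairs went in the same direction 28 times and in opposite directions 17 times, with a median r of 0.05.

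The highest r was between B3gnt7 and Fut2 (Pearson's r = 0.66, permutation p = 0.0107, adjusted p = 0.214, Spearman's rho = 0.55, permutation p = 0.02055, 20 mice), and it was 0.40 without the 2 mice farthest in B3gnt7. B3galt5 and St3gal4 had r = 0.57 (permutation p = 0.0143, adjusted p = 0.214, rho = 0.58, permutation p = 0.0137), and 0.59 without the 2 farthest mice. C1galt1 and Gcnt3 had r = 0.58 (permutation p = 0.0285, adjusted p = 0.257, rho = 0.44, permutation p = 0.0677), which was 0.25 without 2 mice. A relation that misses the adjustment over 20 mice is not shown to be absent.

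**Figure D3:**
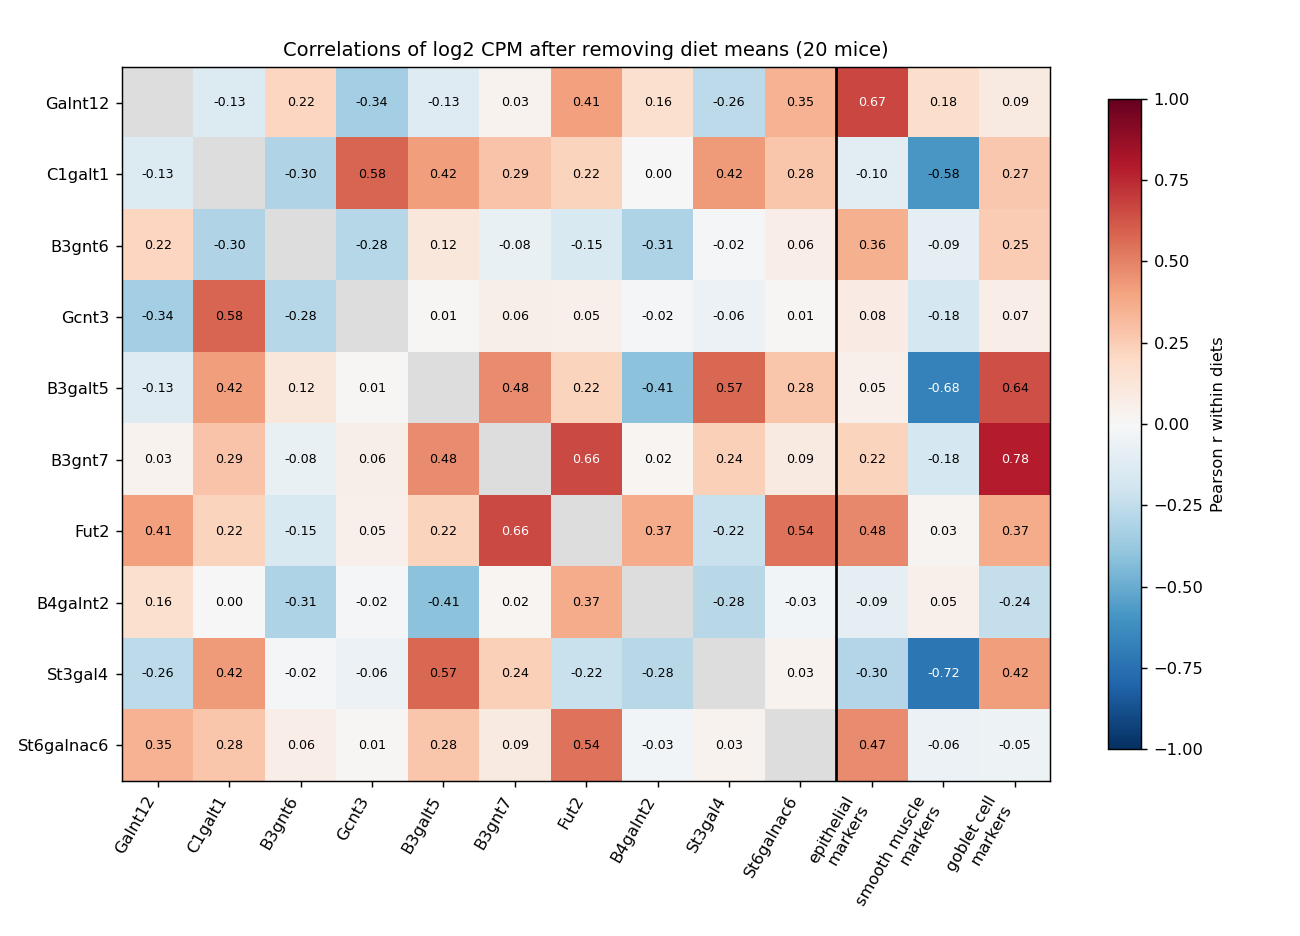
Pearson's r of log2 CPM between members (left of the black line) and between members and 3 cell type marker levels (right of the line), over 20 mice after removing diet means. Red is positive and blue negative on a scale from -1 to 1. B3galt5 and St3gal4 are at -0.68 and -0.72 with smooth muscle markers, and B3gnt7 is at 0.78 with goblet cell markers.

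Markers of the cell types in the tissue were set beside the members in the same way, as the mean log2 CPM of each list. With the epithelial level, 0 of 10 members passed the adjustment and 1, Galnt12, had an unadjusted p under 0.05 (r = 0.67, permutation p = 0.00657, adjusted p = 0.0657, rho = 0.55, permutation p = 0.0253, and r = 0.54 without the 2 farthest mice). Of the 15338 tested genes outside this marker list, 1.43% were at or above that r and 2.26% were as far from 0 in either direction. For B3galt5 and the epithelial level r was 0.05. Smooth muscle and goblet cell markers were looked at after the data had been seen. All 6 smooth muscle markers had positive and all 10 goblet cell markers negative log2 fold changes at 10% RPS. This did not single them out, since all 6 B cell and all 5 tested macrophage and myeloid markers were also positive. Of the 10 epithelial markers 9 were negative, with 4 lower at an unadjusted p under 0.05 in edgeR (40%, beside 19.5% of all genes). The B cell and macrophage lists were not set beside the members in this way. Of the 20 relations of members with the smooth muscle and goblet cell levels, 4 passed a Benjamini-Hochberg adjusted p of 0.05. An unadjusted p under 0.05 was reached by 5. The adjustment covers these 20 relations and not the choice of the 2 lists. How many of all genes would pass the same tests was not counted, and the share of genes with an r as far from 0 is given for each relation below.

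B3galt5 was lower in mice with more smooth muscle RNA than others on their diet (r = -0.68, permutation p = 0.00167, adjusted p = 0.0111, rho = -0.71, permutation p = 0.0018, and r = -0.63 without the 2 mice farthest in the marker level). St3gal4 was too (r = -0.72, permutation p = 0.0006, adjusted p = 0.006, rho = -0.67, permutation p = 0.00291, and r = -0.72 without 2 mice). C1galt1 had r = -0.58 (permutation p = 0.00993, adjusted p = 0.0496, rho = -0.57, permutation p = 0.0097, and r = -0.48 without 2 mice). The first 2 relations passed in all 23 other settings, in which 1 mouse was left out, other size factors or another prior count were used, or ranks replaced values. That of C1galt1 passed in 10 of the 23. Of the 15342 tested genes outside the marker list, 0.769% had an r with the smooth muscle level at or below that of B3galt5, 0.274% at or below that of St3gal4, and 3.91% at or below that of C1galt1. The tests were two-sided, and in either direction 3.2%, 1.94%, and 8.95% of these genes had an r at least as far from 0.

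B3gnt7 instead followed the goblet cell markers (r = 0.78, permutation p = 3e-05, adjusted p = 0.0006, rho = 0.77, permutation p = 0.00013, and r = 0.72 without the 2 farthest mice) and passed in all 23 other settings, with 0.0978% of tested genes outside that marker list at or above its r and 0.111% as far from 0 in either direction. With the smooth muscle level its r was -0.18. B3galt5 with the goblet cell level had r = 0.64 (permutation p = 0.0128, adjusted p = 0.0512, rho = 0.50, permutation p = 0.0404), which was 0.36 without the 2 farthest mice, and 0.561% of genes were at or above it (1.08% in either direction). Both measures of a mouse come from the same library and share its depth and scaling, and Muc2, Tff3, and the other goblet cell markers hold none of the members.

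**Figure D4:**
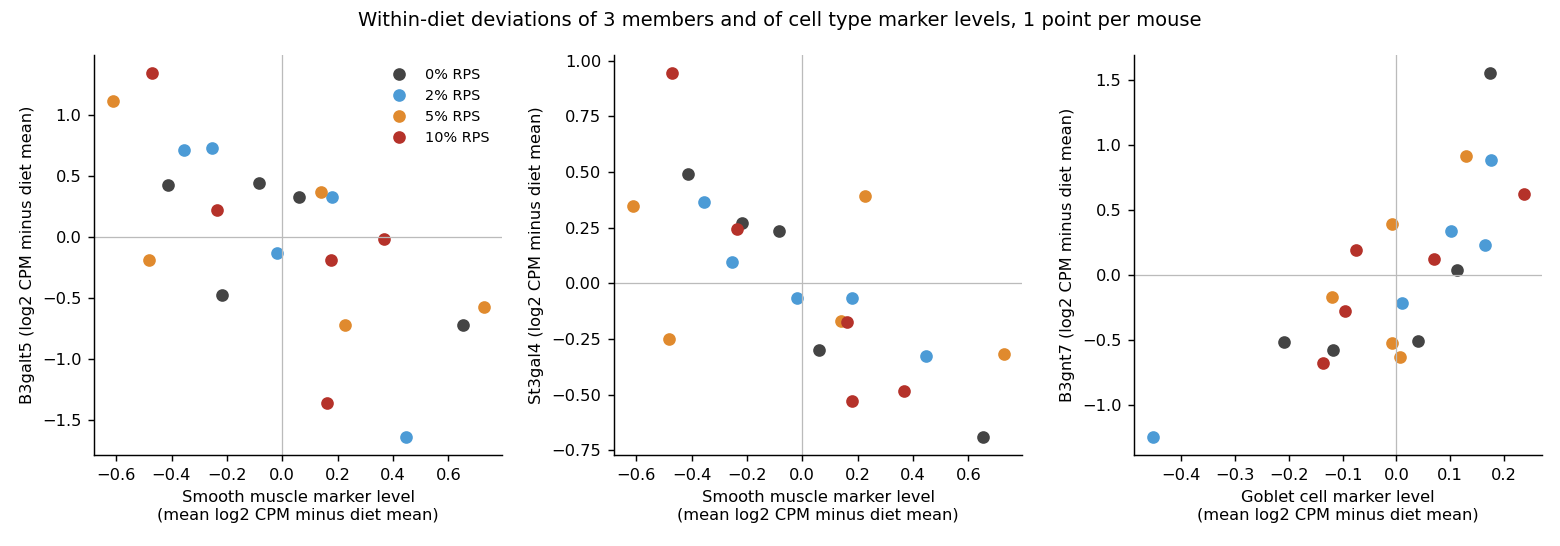
Deviation of each mouse from its diet mean in log2 CPM of B3galt5, St3gal4, and B3gnt7 (vertical axes) against the deviation in the mean log2 CPM of smooth muscle or goblet cell markers (horizontal axes). Colors are diets, with 5 mice each. The points fall from left to right in the first and second panel (r = -0.68 and -0.72) and rise in the third (r = 0.78).

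The 6 smooth muscle markers, of which none was at 0, summed to 2441 to 5668 CPM on 0% RPS, 3236 to 5660 CPM on 2%, 4154 to 9680 CPM on 5%, and 3993 to 6694 CPM on 10% RPS. Actg2, an actin of enteric smooth muscle, passed the edgeR threshold at 10% (log2 fold change 1.28, adjusted p = 0.0358) and at 5% RPS (1.53, adjusted p = 0.0425). Mouse 5 on 0% RPS, low in B3galt5 and St3gal4, had the highest smooth muscle sum of its diet, and mouse 4 on 10% RPS, high in both, had the lowest of its diet. The 10 goblet cell markers, of which none was at 0, summed to 9308 to 12554 CPM on 0% RPS, 6547 to 12249 CPM on 2%, 8396 to 11843 CPM on 5%, and 7344 to 8999 CPM on 10% RPS. Zg16, a lectin of mucus, passed at 10% RPS (-0.84, adjusted p = 0.0251). Other cell types were read in the same way. T cell marker sums had medians of 16.3 and 28.5 CPM on 0 and 10% RPS, and endothelial ones 115 and 118 CPM. The summed B cell markers had a median of 19.2 CPM on 0% and 223 CPM on 10% RPS, those of macrophages and myeloid cells 91.7 and 241 CPM, and those of fibroblasts 477 and 668 CPM, with lowest adjusted p values in edgeR of 0.338, 0.159, and 0.129 at 10% RPS. Among 6 tested small intestine markers 5 had negative log2 fold changes, and Alpi, an intestinal alkaline phosphatase, passed (-0.76, adjusted p = 0.0275). Among 8 absorptive colonocyte markers 3 were positive and 5 negative, and Slc26a3, a chloride exchanger, passed (0.61, adjusted p = 0.0487). The part of these cell types in the results was not tested.

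With the smooth muscle level as a covariate, a fit chosen after seeing the data, the log2 fold change of B3galt5 was -0.58 at 10% and -1.47 at 5% RPS, and that of St3gal4 was -0.35 and -0.07. Those of B3gnt7 were -1.67 and -1.91. With the epithelial level as a covariate B3galt5 was at -1.52 and -2.69. The smooth muscle level itself differed between the diets, so in this fit it and the diet cannot be fully told apart.

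The genes whose log2 CPM was most like that of B3galt5 over the 20 mice were Sval1 (r = 0.91), Ndrg1 (0.89), Fgd6 (0.89), Sh3glb1 (0.89), and Dhx32 (0.89), among all genes tested. After the diet means were removed they were Cox4i2 (0.86), Sval1 (0.82), Fgd6 (0.80), Dhx32 (0.80), and Ndrg1 (0.80), so that 4 of 5 names were the same. Sval1 and Cox4i2 were near 1 CPM, with mean log2 CPM of -0.33 and -0.11. Among the members, B3gnt7 ranked 109 and St3gal4 124 in likeness over the 20 mice, and B4galnt2 had the lowest r, -0.51. With diet means removed B3gnt7 ranked 553 (r = 0.48) and St3gal4 201 (r = 0.57). These values describe libraries that share diet and composition.

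The wider pathway was read from 92 other genes of O-glycan and blood group synthesis, sulfation, and sugar supply, of which 79 were tested. None passed the edgeR threshold at 10, 5, or 2% against 0% RPS. At an unadjusted p under 0.05 there were 7 higher and 12 lower genes at 10% (24.1% of the list, beside 19.5% of all genes), 4 higher and 10 lower at 5% (17.7%, beside 13.3%), and 0 higher and 1 lower at 2% RPS (1.27%, beside 5.77%). DESeq2 passed Gcnt1 and B3gnt5 at 10% (beside 2.46% of all genes) and Sec1 at 5% RPS (beside 1.41%), shares near those of all genes, and no gene of the list at 2%. The median log2 fold change of the list at 10% RPS was -0.02, and at 5% RPS -0.04. The list's members were chosen with earlier results of these mice known.

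**Figure D5:**
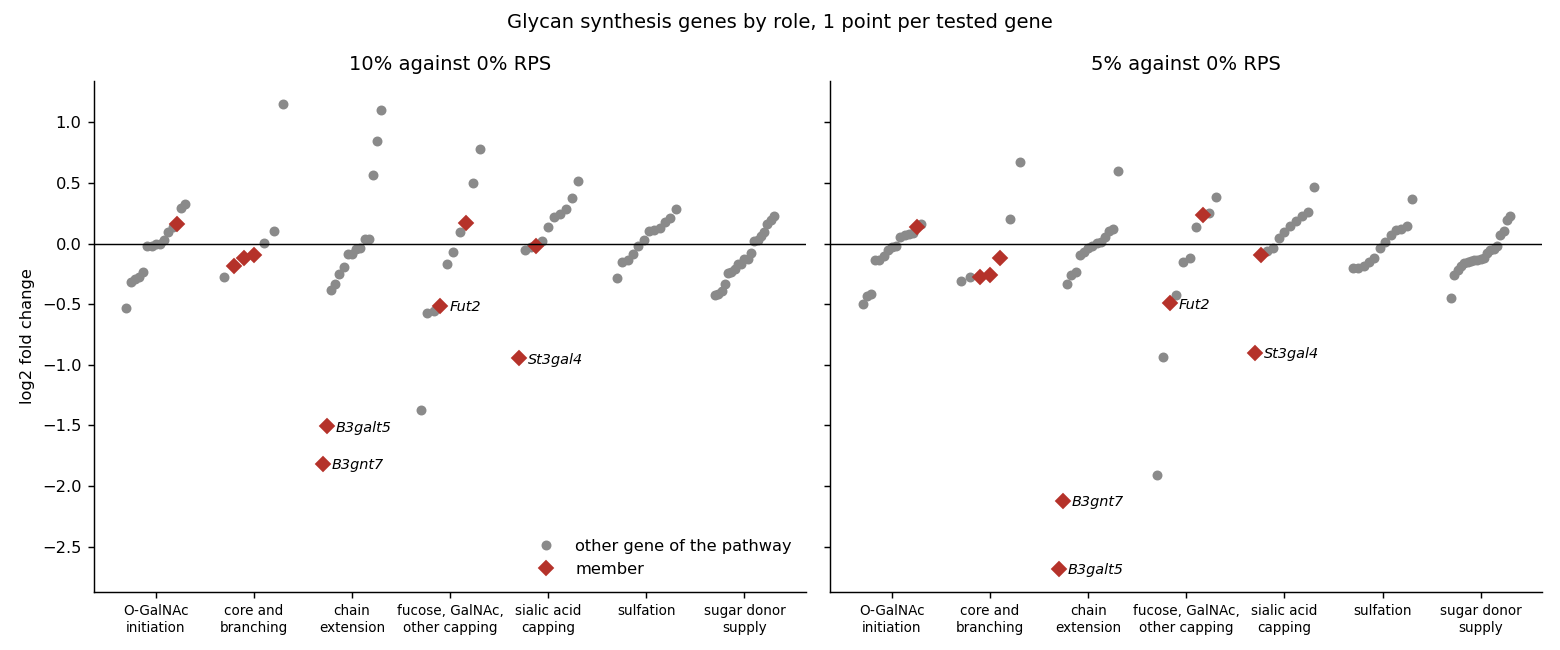
Log2 fold changes (vertical axis) at 10% (left) and 5% RPS (right) against 0% RPS of 79 tested genes of glycan synthesis (gray circles) and the 10 members (red diamonds), ordered within each role. B3galt5 and B3gnt7 lie below every other chain extension gene, and Sec1 (-1.38 at 10% RPS) is the lowest of the other genes.

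Among 14 tested initiating GalNAc transferases, Galnt3 had the lowest adjusted p of the list at 10% RPS, with a log2 fold change of -0.53 ± 0.14 (SE, adjusted p = 0.0511), and -0.50 ± 0.14 at 5% RPS. Galnt7, the highest of these per length (21.4 CPM per kb), was at 0.03 ± 0.14. C1galt1c1, the chaperone that C1galt1 needs to fold, was at -0.27 ± 0.08 (adjusted p = 0.0832) at 10% and -0.31 ± 0.08 at 5% RPS. Gcnt1, which makes core 2 branches in leukocytes and other cells, was at 1.15 ± 0.38 (adjusted p = 0.109). Gcnt1 and C1galt1c1 were thus opposite in sign.

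Among the 13 tested chain extension genes, B3gnt5, which starts the lacto-series chains of glycolipids, was at 1.102 ± 0.32 (SE, adjusted p = 0.0737) at 10% RPS. B3gnt3, the highest of them per length (65.6 CPM per kb), was at -0.34 ± 0.11 (adjusted p = 0.118). Among 8 tested capping genes, 2 higher and 2 lower had an unadjusted p under 0.05 at 10% RPS (50% of the list, beside 19.5% of all genes). B4galnt4 was at -0.55 ± 0.16 (adjusted p = 0.0684), the lowest p of the group. Sec1, a neighbor and relative of Fut2, was at -1.38 ± 0.51 (adjusted p = 0.150) at 10% and -1.91 ± 0.54 at 5% RPS, at a mean of 0.474 CPM. Fut1, which makes the H antigen outside secretions, was at 0.78 ± 0.26 (adjusted p = 0.115), opposite in sign to Fut2. A4gnt was the highest of the group per length (10.1 CPM per kb), with -0.07 ± 0.15.

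Of 9 tested sialyltransferases, 7 had positive log2 fold changes at 10% RPS, as did 7808 of all 15348 genes, and 3 (33.3%, beside 19.5% of all genes) had an unadjusted p under 0.05, all higher, among them St3gal2 at 0.37 ± 0.15 (SE, adjusted p = 0.168). St3gal5, the highest of them per length (17.7 CPM per kb), was at -0.05 ± 0.10. Of 12 tested sulfation genes none had an unadjusted p under 0.05 at 10% RPS, and Papss2, which makes the sulfate donor and was the highest gene of the whole list per length (508 CPM per kb), was at 0.18 ± 0.12. Among 19 genes of sugar donor supply, 12 had negative log2 fold changes at 10% RPS, as did 7540 of all 15348 genes, and 6 (31.6%, beside 19.5% of all genes) had an unadjusted p under 0.05, all lower. These included Galt at -0.42 ± 0.13 (adjusted p = 0.0976) and Slc35c1, the GDP-fucose transporter and the highest of the group per length (71.2 CPM per kb), at -0.33 ± 0.10 (adjusted p = 0.0839). Of 7 tested mucins, the proteins that carry these glycans, 6 had positive log2 fold changes at 10% RPS and 1 a negative one, where 7808 of all 15348 genes were positive. At an unadjusted p under 0.05 there were 4 higher and 1 lower (71.4%, beside 19.5% of all genes). Their median log2 fold change was 0.42, beside 0.004 for all genes. Muc4 passed at 10% RPS (1.103 ± 0.24, adjusted p = 0.0275), and Muc2, the gel-forming mucin of goblet cells and the negative one, was at -0.59 ± 0.23 (adjusted p = 0.172).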

How the data were processed

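Read counts per gene and mouse were deposited by the authors, who made stranded mRNA libraries, trimmed the single-end reads, and mapped and counted them on GRCm39 in the CLC Genomics Workbench. How reads shared by several genes were counted, the annotation release, and the strand setting are not given in the sources used here. Shared reads could change the counts of close relatives such as Fut2 and Sec1. Identifiers were matched to GENCODE M39 (19827 of 19887 genes). Groups came from the labels.

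Counts were filtered by filterByExpr (minimum count 10, minimum total 15), scaled by TMM, and fitted for all 4 diets in edgeR 4.0.16 (R 4.3.3) with robust quasi-likelihood tests and Benjamini-Hochberg adjustment over 15348 genes. DESeq2 1.42.0 was an alternative. SE is the log2 fold change over the root of F. Log2 CPM used a prior count of 2. Correlations used Python 3.11.15 with numpy 2.4.6, and the scripts were tested on simulated data. A floor of 3 counts was at most 0.190 CPM in a library.

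The members and gene lists were chosen with earlier results of these data known. The text names all members, the pathway genes past the threshold at 10 or 5% RPS, the gene of each pathway list with the highest level per length, and the 5 genes most like B3galt5 over mice and within diets. Other pathway genes, Actg2, Zg16, Alpi, Slc26a3, Muc2, and Muc4 were named after their values were seen. A result for 1 pathway gene is not reported here.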

Additional observations from a re-analysis of the deposited data

Results flagged for a closer look

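In a group of 5 mice, a mouse was singled out where its gap to the nearest other mouse was more than 0.71 of the range of the group, which chance gives in about 1 of 20 groups. This was the case in 3 of 40 combinations of member and diet. Mouse 1 on 0% RPS had 5.89 CPM of B3gnt7 when the other 4 had 1.29 to 2.01 CPM. The same mouse had 318 CPM of Fut2 when the others had 153 to 182 CPM. Mouse 2 on 10% RPS had 188 CPM of Fut2 when the others had 110 to 131 CPM. Without mouse 1 on 0% RPS the log2 fold change at 10% RPS was -1.15 in place of -1.82 for B3gnt7 and -0.26 in place of -0.51 for Fut2, and without mouse 2 on 10% RPS that of Fut2 was -0.66.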

How the results depend on the processing

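DESeq2's Wald test passed 3 members at 10% and 3 at 5% RPS, 2 in the trend, and 2 and 1 pathway genes at 10% and 5% RPS. With the epithelial or the smooth muscle level as a covariate, 0 members passed at 5% RPS, and with the rank of the dose 2 passed in the trend. With DESeq2 size factors 1 relation with the epithelial level, that of Galnt12, passed. With each mouse left out in turn, 0 to 3 members passed at 10% RPS, 0 to 2 at 5%, and 0 to 3 in the trend, 0 to 4 pathway genes passed at 10% RPS, and 0 to 1 relation with the epithelial level. Mouse 4 on 10% RPS gave the 3 members at 10% and in the trend (pathway genes 2), mouse 2 on 0% RPS the 4 pathway genes and 1 member, mouse 3 on 2% RPS 1 member at 10%, 1 in the trend, and 1 pathway gene, mouse 5 on 2% RPS 1 and 2 members at 10 and 5%, and mouse 4 on 5% RPS 1 member at 10%. The 12 mice whose absence left 0 members at 5% RPS are named above. The relation of Galnt12 with the epithelial level passed without mouse 2 on 0%, mouse 5 on 5%, or mouse 3 on 10% RPS. Without mouse 1 on 0% RPS it did not pass, and that of Fut2 did (r = 0.48 with all 20 mice). The causes were not tested. Over all genes the counts past the threshold ran from 14 to 344 at 10%, from 0 to 114 at 5%, and from 0 to 674 in the trend when 1 mouse was left out, against 160, 30, and 170. With the epithelial covariate they were 3, 2, and 0, with the smooth muscle covariate 0 at 10% and 0 at 5%, with DESeq2 368 and 241, and 4.84% of genes in the trend, and with only the 2 diets compared 98 and 65. The trend had 103 genes without a filter and 539 with ranks. A stricter or no filter on low counts changed no count of members, though B3gnt7 was not tested with at least 10 counts in every mouse. The sign of the fitted differences of B3galt5, B3gnt7, St3gal4, Fut2, Gcnt3, and B4galnt2 against 0% RPS was the same in every setting that gave one, as was that of Galnt12.

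No paired analysis was possible because the mouse numbers of the labels differ between the diets. At this depth B3gnt7 rested on as few as 5 counts in a mouse. The p-values measure the spread between these 20 mice. The labels do not say whether the mice came from 1 experiment or more, so a difference between experiments could not be examined.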
